A study of Solanum tuberosum with 2 samples.

Results

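The genes described here are 8 potato protease inhibitor genes, out of 40430 features in the deposited table. They were taken by name: each gene whose description in the study's annotation of ultrasound-responsive genes contained "protease inhibitor" or "proteinase inhibitor" was a member, and 8 of the 367 annotated genes were. By class, 6 are Kunitz-type inhibitors (3 Kunitz-type protease inhibitor precursors, 2 genes named cysteine protease inhibitor 8-like and 1 kunitz-type serine protease inhibitor DrTI-like), 1 is proteinase inhibitor II and 1 is proteinase inhibitor 1. All 6 carried the Kunitz domain in that annotation. The names were not taken from the measurements compared here, but the study had listed 3 of the 8 genes (PGSC0003DMG400009511, PGSC0003DMG400004547 and PGSC0003DMG400010136) in a comparison at 0 h that used the library of the cut explants itself.

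The samples were 2 mRNA libraries of wild-type potato (Solanum tuberosum, cv. Desirée) grown in vitro for 4 w. One came from intact plantlets (uncut, no stress) and the other from single-node segments with a leaf that were cut from such plantlets (cut), the control without ultrasound at 0 h by the annotation. Biological replicates were pooled, so there was 1 library per condition, no difference has a replicate check, and no p-value is given. The labels give leaf for both samples while the treatment is described on plantlets and node segments, so cutting cannot be told apart from a difference in organs.

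Protease inhibitors are small proteins that bind to proteolytic enzymes and block them. In Solanaceae they are known as storage proteins of tubers and as defence proteins of leaves, and proteinase inhibitors I and II are textbook examples of genes that respond to wounding and jasmonate. Kunitz-type inhibitors of potato form a large gene family that includes inhibitors of serine, cysteine and aspartic proteases, and many of its genes lie close to each other.

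The RT-qPCR primers of the study are the sequences that the sources used here tie to a member. They are shown because the study designed them for the DrTI-like gene (PGSC0003DMG400010170). Of the 8 members, this gene's level in cut explants was farthest below that in intact plantlets. The study chose its RT-qPCR genes from the ultrasound comparisons, not from cut against uncut. The match of these primers to the gene was not checked here. Both are given 5′ to 3′ and are 18 bases long.
PGSC0003DMG400010170 forward: ctaacttcgtctgtccct
PGSC0003DMG400010170 reverse: ccttctacttgccacact

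Expression is given as reads per 1e+06 reads of the library (RPM), on a log2 scale (log2 RPM), with reads recovered from the deposited values. Brackets hold exact 95% intervals, which cover counting error only and treat reads as independent. The libraries held 37955480 (uncut) and 33850940 (cut) reads, and at least 99.9% of the values of features with reads came out whole within 0.05 read. A feature was called higher or lower by size, at a log2 difference (cut minus uncut) of at least 2 with at least 50 reads over both libraries. Over the 21688 features with enough reads the median difference was -0.33, and 36.8% lay above 0. In bulk samples such as these, fewer cells of a type and less RNA per cell cannot be told apart.

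The inhibitor genes did not move as a block. All 8 genes had enough reads. A group of 4 genes on chromosome 3 (the 3 Kunitz-type protease inhibitor precursors and proteinase inhibitor II) were 2.27-fold to 9.08-fold higher in the cut explants, and the other 4 genes (DrTI-like, the pair of cysteine protease inhibitor 8-like genes and proteinase inhibitor 1) were 1.30-fold to 3.37-fold lower. The cysteine protease inhibitor 8-like pair, at -0.38 and -0.40, lay close to the median of all features (-0.33). The interval of PGSC0003DMG400010144 included 0. By the rule of size, 2 of the 8 genes were higher, against 8.25% of all features tested, and 0 were lower, against 7.35%. Both called genes are among the 3 that the study had listed at 0 h. At a difference of at least 1, 4 members were higher, against 16.4% of features, and 2 lower, against 22.5%. The median difference of the 8 genes was 0.40, which falls between the lower and the higher genes where no member lies, and it was 1.18 without PGSC0003DMG400010144 (a minimum of 200 reads) and 0.73 with libraries scaled by the median ratio. Summed over the members, expression went from 1633 RPM in intact plantlets to 5358 RPM in cut explants, and their share of the reads on all features from 0.0921% (Wilson 95% interval 0.0914% to 0.0928%) to 0.302% (0.301% to 0.303%).

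**Figure D1:**
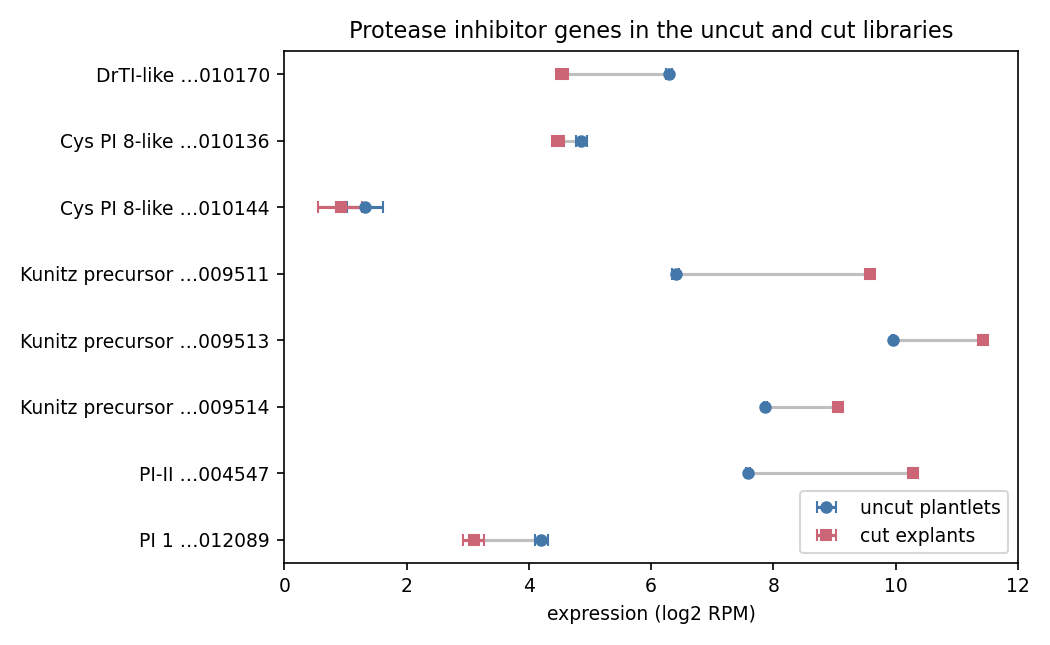
Expression of the 8 protease inhibitor genes (log2 RPM, x axis) in the library of the uncut plantlets (circles) and of the cut explants (squares), with 95% Poisson intervals, in chromosome order from top to bottom. The cut library is to the right for the 3 Kunitz-type precursors and proteinase inhibitor II, and to the left for the other 4 genes.

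The Kunitz-type protease inhibitor precursors resemble potato aspartic protease inhibitors, since the best protein match of all 3 in the study's annotation carries that name. PGSC0003DMG400009511 (chromosome 3, 49798113 to 49798938 in SolTub 3.0, minus strand) had 3206 reads in intact plantlets and 25965 in cut explants. These counts equal 6.40 (6.35 to 6.45) and 9.58 log2 RPM (9.57 to 9.60), so the cut library was higher by 3.18 (3.13 to 3.24), or 9.08-fold. It was the largest difference among the members, and 3.81% of all features tested had a higher one.

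PGSC0003DMG400009513 (49830058 to 49830845, minus strand) was the most abundant member in both libraries, with 37699 reads in intact plantlets and 93084 in cut explants. Its level was 9.96 log2 RPM (9.94 to 9.97) in the former and 11.43 (11.42 to 11.43) in the latter, a difference of 1.47 (1.45 to 1.49). By level it ranked 202 of the 40430 features in the intact plantlets and 34 in the cut explants. The difference lay under the rule of 2, although the counting intervals were far apart.

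PGSC0003DMG400009514 (49841306 to 49842079, minus strand) had 8888 reads in intact plantlets and 17980 in cut explants, or 7.87 (7.84 to 7.90) and 9.05 log2 RPM (9.03 to 9.07). The difference was 1.18 (1.14 to 1.22). The 3 precursor genes thus shared a direction, but their differences did not overlap within counting error.

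Proteinase inhibitor II (PGSC0003DMG400004547, 49956094 to 49956945, plus strand), an inhibitor of serine proteases, had 7311 reads in intact plantlets and 42462 in cut explants. Its level was 7.59 log2 RPM (7.56 to 7.62) in the intact plantlets and 10.29 (10.28 to 10.31) in the cut explants. The cut library was higher by 2.70 (2.67 to 2.74), or 6.51-fold, and 5.22% of features had a higher difference. By level it moved from rank 1850 to rank 144.

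Per kb of gene span, which can include introns, the order of the 4 genes was PGSC0003DMG400009513, PGSC0003DMG400009514, proteinase inhibitor II and PGSC0003DMG400009511 in the uncut library, at 1260, 302.5, 226 and 102 RPM per kb. In the cut library proteinase inhibitor II (1472 RPM per kb) and PGSC0003DMG400009511 (929 RPM per kb) stood above PGSC0003DMG400009514 (686 RPM per kb), and PGSC0003DMG400009513 remained first at 3490 RPM per kb. Together these 4 genes held 92.1% (Wilson 95% interval 91.9% to 92.3%) of the reads on the 8 members in the uncut and 99.0% (98.9% to 99.0%) in the cut library. Within the members, the share of PGSC0003DMG400009513 went from 60.8% (60.4% to 61.2%) to 51.3% (51.1% to 51.5%), and that of proteinase inhibitor II from 11.8% (11.5% to 12.1%) to 23.4% (23.2% to 23.6%).

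The remaining Kunitz-type members lay below their level in intact plantlets by less than the rule of size. The DrTI-like gene (PGSC0003DMG400010170, chromosome 3, 43994118 to 43995506, minus strand) is named after a trypsin inhibitor of the legume tree Delonix regia. It is the intended target of the primers above. It had 2981 reads in intact plantlets and 789 in cut explants. This was 6.30 (6.24 to 6.35) against 4.54 log2 RPM (4.44 to 4.64), a difference of -1.75 (-1.87 to -1.64), or 3.37-fold lower. Of all features tested, 90.4% had a higher difference.

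The pair of genes named cysteine protease inhibitor 8-like differed little between the libraries. Their Kunitz-type class rests on the domain, but cysteine proteases as their target rest on the name. The best protein match was cysteine protease inhibitor 9-like for PGSC0003DMG400010136 but miraculin-like for PGSC0003DMG400010144. PGSC0003DMG400010136 (44120177 to 44121031, plus strand) had 1102 reads in intact plantlets and 754 in cut explants, or 4.86 (4.77 to 4.94) and 4.48 log2 RPM (4.37 to 4.58). Its difference of -0.38 (-0.52 to -0.25) was close to the median of all features. PGSC0003DMG400010144 (44319220 to 44319900, plus strand) was the least abundant member, with 95 reads in intact plantlets and 64 in cut explants. Its levels of 1.32 (1.02 to 1.61) and 0.92 log2 RPM (0.54 to 1.27) gave a difference of -0.40 (-0.89 to 0.07), whose interval included 0.

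Proteinase inhibitor 1 (PGSC0003DMG400012089, chromosome 9, 55671793 to 55672462, plus strand), a serine protease inhibitor that the study's annotation links to the response to wounding, had 700 reads in intact plantlets and 290 in cut explants. Its level was 4.20 log2 RPM (4.10 to 4.31) in the former and 3.10 (2.93 to 3.26) in the latter. The difference was -1.11 (-1.31 to -0.91), opposite in sign to that of proteinase inhibitor II.

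**Figure D2:**
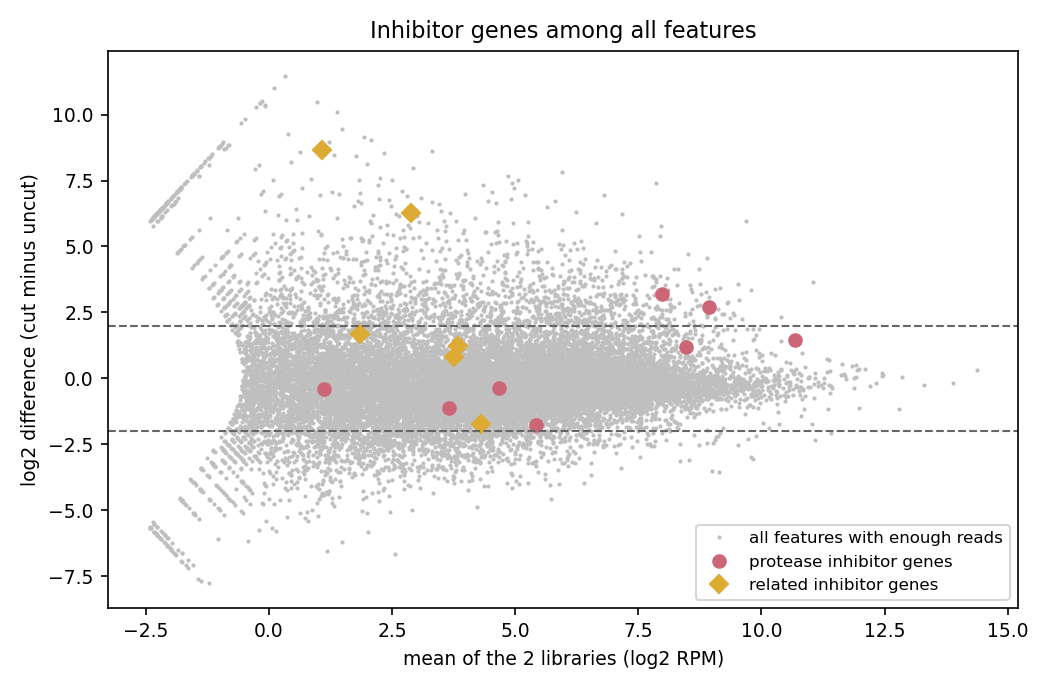
Log2 difference (cut minus uncut, y axis) against the mean log2 RPM of both libraries (x axis) for the 21688 features with at least 50 reads (grey), the 8 protease inhibitor genes (circles) and the 6 related inhibitor genes with enough reads (diamonds). Dashed lines mark a difference of 2 in either direction, and 2 members and 2 related genes lie above the upper line.

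By chromosome position, 7 of the 8 members lay on chromosome 3 in groups 5.48 Mb apart, with 445 features between the groups, and 1 on chromosome 9. The first group (43994118 to 44319900, 326 kb) held the DrTI-like gene and both cysteine protease inhibitor 8-like genes. All 3 were lower in the cut library, and their summed expression went from 110 to 47.5 RPM. The second group (49798113 to 49956945, 159 kb) held the 3 precursor genes and proteinase inhibitor II, all higher, and went together from 1504 RPM in intact plantlets to 5302 RPM in cut explants. Of the Kunitz-type members, the 3 of the second group were above 0 and the 3 of the first below it, as were most features of the table. PGSC0003DMG400010136 and PGSC0003DMG400010144 had intervals that included the median of all features, and the interval of the DrTI-like gene lay below it.

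In the second group the members stood close together. Gaps of 31.1 kb and 10.5 kb separated the precursor genes, and 114 kb lay between PGSC0003DMG400009514 and proteinase inhibitor II. Kunitz-type inhibitor B (PGSC0003DMG400009512, 49826018 to 49826578), a serine protease inhibitor that the name rule does not take, lay in the first of these gaps. It had 4 reads in intact plantlets and 1447 in cut explants, a difference of 8.66 (7.30 to 10.54) that ranked 30 of 21688. The 4 other features between the first and the last member of this group had at most 11 reads over both libraries. All 5 features of the group with enough reads were inhibitor genes, but PGSC0003DMG400009512 passed the read minimum only through the cut library and was listed by the study at 0 h, so its direction adds nothing to that of the 4 members.

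In the first group, with 14 features from the first to the last member, 8 had enough reads. While 36.8% of all features tested lay above 0, 8 of 8 here were lower in the cut library. That count depends on the span, which ends at the outer members. Just before the DrTI-like gene, a feature outside the span had 392 reads in intact plantlets and 2561 in cut explants (2.87). Another there had 3928 and 807 (-2.12). Besides the 3 members, the features of the span with enough reads were Kunitz-type inhibitor C (PGSC0003DMG400010137, 44147925 to 44148798), with 1375 reads in intact plantlets and 367 in cut explants and a difference of -1.74 (-1.91 to -1.57), and 4 features without a name in the sources used. Among the latter were PGSC0003DMG400010172, with 2238 reads in intact plantlets and 725 in cut explants (-1.46, -1.58 to -1.34), and PGSC0003DMG400010143, with 59 and 6 reads (-3.13, -4.64 to -1.93). PGSC0003DMG400010143 was the single feature of this group past the rule of size, by which 7.35% of all features tested were lower. It passed the read minimum only through the uncut library, so its direction adds nothing to that of the others.

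The surroundings of the members did not share these directions as a whole. Within 100 kb of a member, 41 features were neither members nor related inhibitors, and 19 of them had enough reads. They were above 0 in 9 and below 0 in 10 cases, with a median of -0.18. Of the 19, 3 were called higher, against 8.25% of all features tested, and 2 lower, against 7.35%. Some of these calls, that of PGSC0003DMG400010143 among them, were of features that passed the read minimum only through the library where they were higher. Such calls add nothing on direction. Near the first group the 13 such features had a median of -0.81, with 5 above 0. They include the 4 unnamed features between its members, all below 0, so the 5 above 0 lay outside the span of the members. Near the second group the 6 had a median of 0.41, with 4 above 0. The median of all 2286 features of chromosome 3 with enough reads was -0.35. None of the 8 members overlapped another feature of the table.

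**Figure D3:**
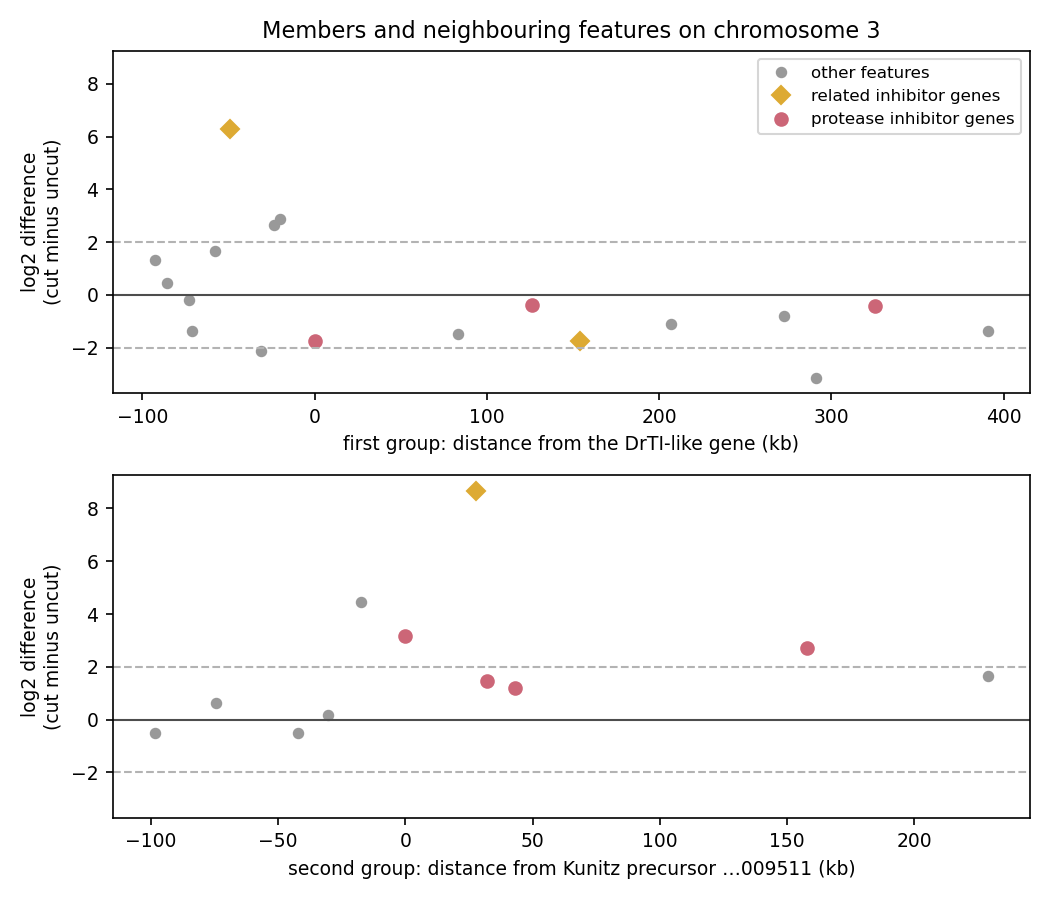
Log2 difference (cut minus uncut, y axis) of features with at least 50 reads against the distance of their start from the first member of each group on chromosome 3 (kb, x axis), with members as circles, related inhibitor genes as diamonds and other features in grey. Members lie between -1.75 and -0.38 in the first group (upper panel) and between 1.18 and 3.18 in the second (lower panel).

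Inhibitor genes that the annotation describes by other words formed a list of 8 (Kunitz-type inhibitors B and C, a miraculin-like gene, cystatins and a metallocarboxypeptidase inhibitor). The study had listed 7 of these at 0 h, on the library of the cut explants, so their direction is not independent evidence. Enough reads were counted for 6, with a median of 1.46. By the rule of size 2 were higher, against 8.25% of all features tested, 0 lower, against 7.35%, and 4 in between. Both called genes, which the median includes, passed the read minimum only through the cut library, so their direction adds nothing. Both were named Kunitz-type inhibitor B. Beside PGSC0003DMG400009512, this was PGSC0003DMG400010128 (chromosome 3, 43944960 to 43945792), which had 32 reads in intact plantlets and 2220 in cut explants.

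PGSC0003DMG400010128 thus differed by 6.28 (5.78 to 6.83), and was also the gene of this list with the most reads. It lay 48.3 kb before the DrTI-like gene, closer than the members of the first group lay to each other (124.7 and 198.2 kb), with 5 features starting in between, and was 77.8-fold higher where the latter was 3.37-fold lower. The putative cystatins, inhibitors of papain-like cysteine proteases on chromosome 6 and described after their values were seen, were 3 genes, and the differences of the 2 with enough reads were 1.24 and 0.83. The Kunitz-type genes of both lists with enough reads thus ranged from -1.75 to 8.66, and the miraculin-like gene (PGSC0003DMG400027054), which also has a Kunitz domain, had 12 reads in intact plantlets and 0 in cut explants.

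**Figure D4:**
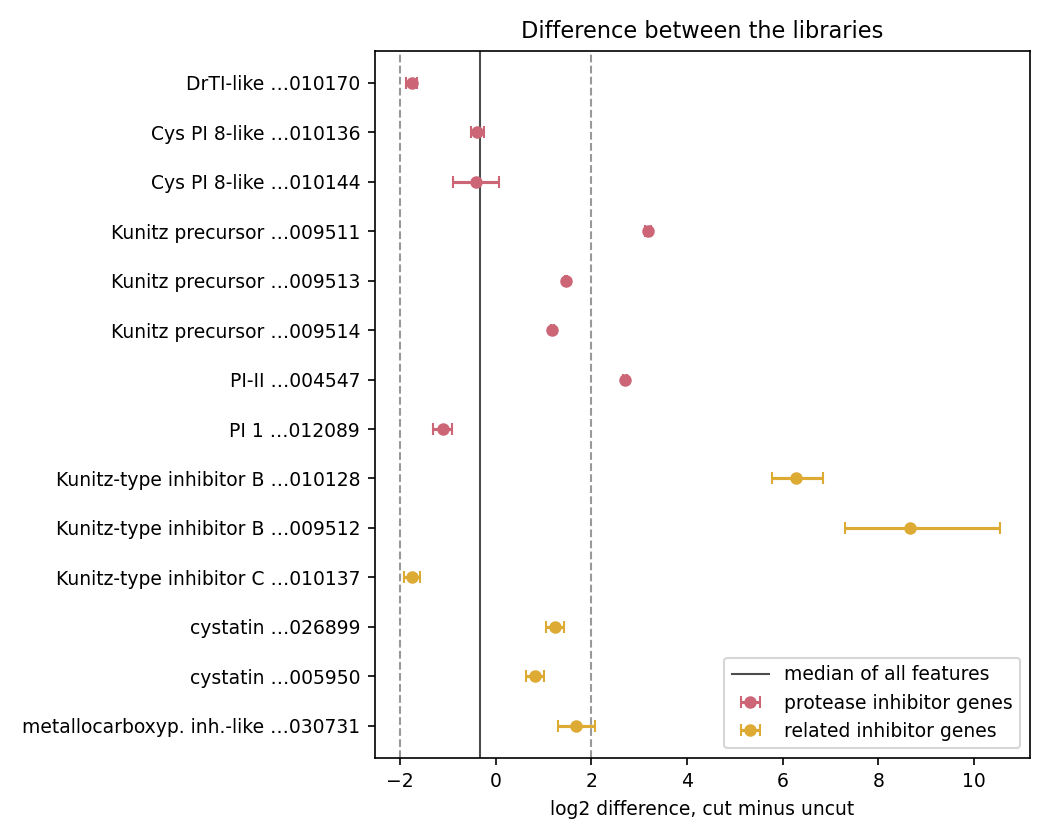
Log2 difference (cut minus uncut, x axis) of the 8 protease inhibitor genes and of the 6 related inhibitor genes with at least 50 reads, with Clopper-Pearson 95% intervals. The solid line is the median of all features (-0.33) and dashed lines mark 2 in either direction. The pair of genes named Kunitz-type inhibitor B lies farthest to the right.

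Proteases, the enzymes that such inhibitors bind, were described by the 8 genes of the annotation named so. In this list 0 genes were higher by the rule of size, against 8.25% of all features tested, and 2 were lower, against 7.35%. The other 6 lay in between. Of the 8 genes, 2 lay above 0 (0.86 and 0.90) and 6 below, with a median of -1.77. The called genes were aspartic proteinase nepenthesin-1 (PGSC0003DMG400023324), which had 468 reads in intact plantlets and 73 in cut explants (-2.52, -2.89 to -2.16), and Basic secretory protease (PGSC0003DMG400025765), with 125 reads in the former and none in the latter. With the count of 0 taken as 3 reads this was a level at least 37.2-fold lower. Basic secretory protease passed the read minimum only through the uncut library, so its direction adds nothing. The most abundant was cysteine proteinase 3 (PGSC0003DMG400027888), with 12096 reads in intact plantlets and 3404 in cut explants and a difference of -1.66 (-1.72 to -1.61). Individual proteases were not matched to individual inhibitors.

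Markers of organs were compared between the libraries as well. Over all features tested, 7.35% were lower and 8.25% higher by the rule of size. Of 4 genes named for or linked to the Casparian strip, a barrier of the root endodermis, 3 were lower and 0 higher. Their summed expression went from 470 RPM to 92.6 RPM (single genes 24.1 to 330 and 0.325 to 51.5 RPM). The largest fall in RPM was that of CASPARIAN STRIP INTEGRITY FACTOR 2-like, from 330 to 25.9. The gene not called, CASP-like protein 4D1, went from 45.9 to 51.5 RPM, a difference of 0.17 (0.07 to 0.26). Of 7 chlorophyll a-b binding protein genes, defining genes of green tissue, 1 was lower by the rule and 0 higher. By sign, 6 lay below 0 and 1 above, with sums of 205 and 120 RPM (single genes 9.83 to 82.3 and 4.40 to 49.4 RPM). No marker of either list was at 0 in a library. The part of such organ markers in the differences of the inhibitor genes was not tested.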

How the data were processed

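RNA was analysed from 2 libraries, intact plantlets and cut explants. The authors trimmed the reads (Trim Galore 0.5.0), aligned them in paired-end mode (HISAT2 2.1.0) to SolTub 3.0, kept unique alignments (mapping quality of at least 60) and summed those on the exons of a gene (SeqMonk 1.42.0). The deposited values are log2 of RPM, that is reads per 1e+06 reads of the library. Reads of near-identical inhibitor copies, which do not align uniquely, are thus missing, and whether strand was used in counting is not stated.

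From these values reads were recovered here, 1 read being the lowest value above that of features without reads (deposited at 0.9 read). Reads on genes came to 67314360 (uncut) and 60081924 (cut), more than the library totals. Were both mates of a pair counted, the intervals would be too narrow. A count of 0 was taken as up to 3 reads (0.0790 RPM for intact plantlets, 0.0886 RPM for cut explants). No test was run, as there was 1 library for each. Features were called at a log2 difference of at least 2 with at least 50 reads. Every member was named; of the other lists, genes past the rule and the one with the most reads, and of other features those between members. Members and lists were chosen with earlier results of these data known. Other read minima, thresholds, pseudocounts, scalings and distances were tried. The procedure was tested on simulated reads that held counting error only, so variation between plants or pools was not covered. Gene names came from the study's annotation, as 0 of the identifiers matched RefSeq's gene table. Intervals came from scipy 1.17.1 and figures from matplotlib 3.10.9, with pandas 2.3.3 and numpy 2.4.6 in Python 3.11.15.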

Additional observations from a re-analysis of the deposited data

How the results depend on the processing

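No paired analysis was possible because uncut and cut are single libraries. All 8 members kept their direction under 2 other pseudocounts and 3 other scalings (40 of 40 values). Of these values, 27 lay within the counting intervals given above and 13 outside. The counts of 2 members higher and 0 lower held under each of these settings. Read minima of 10 and none could not change them, as every member has at least 159 reads, and 200 leaves out only a gene that was not called. A difference of at least 1 gave 4 members higher and 2 lower, and one of at least 3 gave 1 higher. With a minimum of 200 reads, which leaves out PGSC0003DMG400010144, the median of the members was 1.18 in place of 0.40. Scaling by the median ratio adds 0.33 to every difference, bringing PGSC0003DMG400010136 to -0.05 and PGSC0003DMG400010144 to -0.07. These genes thus kept their sign by a small margin, and the counting interval of PGSC0003DMG400010144 included 0 without scaling. The same scaling moved the split of all features from 1789 higher and 1595 lower to 2216 and 1099. For all features, no minimum gave 3007 higher and 2486 lower, as more features enter, a difference of at least 1 gave 3550 and 4881, one of at least 3 gave 937 and 528, and log2(RPM + 1) gave 857 lower. A minimum of 10000 reads, chosen after seeing the data, left 4 members, both called ones only through the cut library, and gave 276 higher and 61 lower. Depth limits PGSC0003DMG400010144 most.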
